A study of Rattus norvegicus with 35 samples.

Results

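The genes described here are the hepatic targets of the nuclear receptor PPAR-alpha together with the enzymes of fatty acid oxidation, read in liver RNA of rats dosed with the brominated flame retardant BTBPE. The list held 36 genes, and each was represented by its probe set of highest mean over all arrays among the probe sets that the platform annotation gives a single symbol. On this basis 33 genes were measured, of 14217 genes with such a probe set. Cyp4a2, Acaa1a and Acaa1b had only probe sets that carry 2 symbols and were not analysed as genes. The rule used gene identity and level, not dose, so none of the dose comparisons below entered the choice of probe sets. The list of genes itself was chosen with earlier results of these data known. That limit applies to the counts of members and to the pair tests below.

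The animals were male Sprague Dawley rats from Harlan. Dosing began at an age of 7 weeks, with BTBPE in corn oil given by gavage once a day for 5 days, and the left liver lobe was taken 1 day after the last dose. There were 6 groups: a vehicle group given corn oil alone and dose groups of 0.07, 0.69, 6.88 and 68 mg/kg and, as the highest, 680 mg/kg. Each group held 6 rats except the 68 mg/kg group, which held 5, and each of the 35 arrays came from a single rat. All rats, vehicle included, received corn oil at 5 ml/kg and the same diet. Whole liver was measured, so fewer cells of a type and less RNA per cell cannot be told apart.

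PPAR-alpha is a ligand-activated transcription factor that pairs with a retinoid X receptor and binds direct repeats of a hexamer near its target genes. In rodent liver its activators, which include fibrate drugs and fasting-released fatty acids, raise the microsomal omega-hydroxylases of the Cyp4a family, the peroxisomal beta-oxidation enzymes and the mitochondrial enzymes that bring long-chain acyl groups across the inner membrane. Mitochondria oxidise most dietary fatty acids to acetyl units, and peroxisomes shorten very long chains first. Cyp4a1, Ehhadh and Cpt1a are widely used liver readouts of this receptor in rats.

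Promoter sequences of some members are shown here because these genes are grouped as targets of a single receptor. Cyp4a3, Cpt2 and Acot2 were picked because they varied together with other members from rat to rat. Hadha was picked for its position beside Hadhb. Fabp1 was picked only for its motif match, and it is in none of the pairs named below. RefSeq promoter windows of build GRCr8, holding 250 bases before and 50 bases after the gene start, were matched for 25 of the 33 members. Cyp4a1, Cpt1b, Vnn1, Acaa2, Ech1, Acadl, Decr1 and Aqp7 were not matched. The 250 bases before the start are printed 5′ to 3′ on the gene's own strand. Capitals mark only the direct repeat in Fabp1 and the single hexamer in Cyp4a3; other motifs are left in lower case. Fabp1 (chr4:104749090-104749339, plus strand) carries, at positions -77 to -65 from the start, the only member match to the direct repeat AGGNCANAGGNCA, a relaxed form of the repeat bound by the receptor. Cyp4a3 (chr5:134352237-134352486, minus strand) carries the single hexamer AGGTCA at -105 to -100. Cpt2 (chr5:127910819-127911068, minus strand) and Acot2 (chr6:109342590-109342839, plus strand) form the mitochondrial pair that varied together most closely. The Hadha stretch (chr6:31907551-31907800, plus strand) lies between the starts of Hadha and Hadhb, which are 301 bases apart and point away from each other.
Fabp1: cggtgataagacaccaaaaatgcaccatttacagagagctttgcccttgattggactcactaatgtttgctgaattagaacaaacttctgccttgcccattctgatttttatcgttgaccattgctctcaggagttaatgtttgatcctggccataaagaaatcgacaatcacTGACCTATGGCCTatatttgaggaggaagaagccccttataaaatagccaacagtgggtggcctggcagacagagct
Cyp4a3: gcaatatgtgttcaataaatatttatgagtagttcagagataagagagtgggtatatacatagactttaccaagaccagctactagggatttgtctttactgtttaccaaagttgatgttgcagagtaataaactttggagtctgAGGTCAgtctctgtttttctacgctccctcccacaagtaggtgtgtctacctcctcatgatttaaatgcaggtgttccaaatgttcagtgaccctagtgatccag
Cpt2: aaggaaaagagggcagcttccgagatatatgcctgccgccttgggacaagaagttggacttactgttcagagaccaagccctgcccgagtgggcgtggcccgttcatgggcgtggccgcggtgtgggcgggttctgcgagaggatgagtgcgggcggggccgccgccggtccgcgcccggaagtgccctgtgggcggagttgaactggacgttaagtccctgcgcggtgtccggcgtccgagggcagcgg
Acot2: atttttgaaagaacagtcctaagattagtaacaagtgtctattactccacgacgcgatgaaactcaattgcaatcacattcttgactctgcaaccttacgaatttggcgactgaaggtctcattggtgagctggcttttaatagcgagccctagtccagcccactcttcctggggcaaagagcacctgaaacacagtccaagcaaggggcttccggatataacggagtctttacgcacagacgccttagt
Hadha: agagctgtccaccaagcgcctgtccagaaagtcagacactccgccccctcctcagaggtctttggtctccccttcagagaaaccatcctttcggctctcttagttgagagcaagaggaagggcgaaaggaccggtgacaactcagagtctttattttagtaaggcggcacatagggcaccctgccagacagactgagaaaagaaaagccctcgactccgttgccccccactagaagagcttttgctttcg

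The exact repeat AGGTCANAGGTCA was found in 0 of 25 member windows and in 0.0538% of all 33469 windows of the same length. The relaxed repeat AGGNCANAGGNCA, which includes the exact one, was found in 1 of 25 member windows and in 0.415% of all windows. The single hexamer AGGTCA, which the repeats can contain, was present in 6 member windows (Acadvl, Cyp4a3, Eci1, Eci2, Fabp1 and Hadhb) and in 16.2% of all windows. The core promoter element TATAAA was present in 4 (Acot3, Angptl4, Cd36 and Fabp1) and in 14.2% of all windows. A match is a string of letters in this window, and its absence says nothing about sites farther away.

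No member passed the test against vehicle at any dose after correction. In limma's moderated test on all 31042 probe sets, with Benjamini-Hochberg adjustment and a threshold of 0.05, 0 of 33 members and 0 probe sets in all (0% called) passed at each of the 5 doses, in the trend over dose rank and in the F test over all doses. The counts of probe sets at an unadjusted p under 0.05 were 1130, 981, 1438, 1205 and 1538 from the lowest to the highest dose, which is 3.64%, 3.16%, 4.63%, 3.88% and 4.95% of those tested. An unmoderated analysis of variance also called 0 at every dose, with 1111, 975, 1466, 1209 and 1526 probe sets at an unadjusted p under 0.05. Of the 33 members, 3, 8, 1, 1 and 1 had an unadjusted p under 0.05 at the same doses. Of the 3 at 0.07 mg/kg, 2 were lower and 1 was higher than vehicle, where 1.74% and 1.9% of all probe sets were lower and higher at that p. All 8 at 0.69 mg/kg were lower, where 1.68% of all probe sets were. The member at each of the 3 higher doses was lower too, where 2.34%, 2.11% and 2.76% of probe sets were. In the F test 3 members, Cpt1a, Acot2 and Angptl4, had an unadjusted p under 0.05, where 3.85% of probe sets did, and in the trend 0 members did, where 5.14% did. Each dose was set against the same 6 vehicle rats, so the 5 comparisons are not independent of each other.

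The intervals, each for a single gene and dose and not adjusted for their number, bound how large a rise could have gone unseen. The upper end of the 95% interval of the fold over vehicle was below 1.5 for 31, 31, 29, 31 and 30 of the 31 members with a mean above the lowest array median, from the lowest to the highest dose. Cyp4a8 and Acot1 lay below that median, and their intervals bound no rise. Fabp1 averaged 13.57, above 99.9% of genes, where the highest value on any array was 14.44. Whether so bright a probe set could still show a rise was not tested. Over all genes, 99.2%, 99.1%, 98.9%, 98.8% and 98.9% had such an interval. The members that exceeded the bound were Pdk4 and Angptl4 at 6.88 mg/kg and Pdk4 at 680 mg/kg. For all 31 of these members the whole interval lay within 2-fold of vehicle at every dose.

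**Figure D1:**
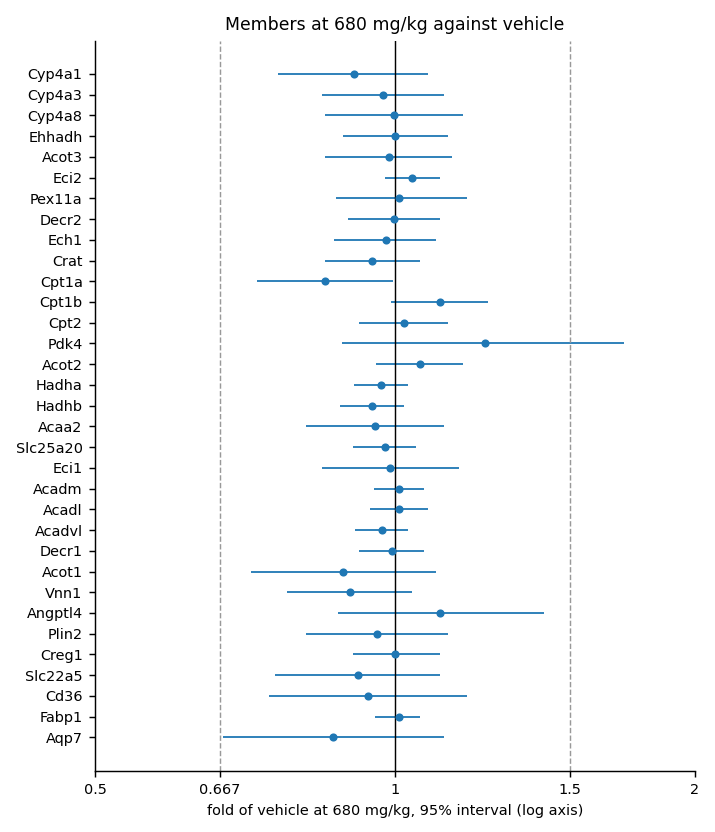
Fold of vehicle at 680 mg/kg (log axis) for each of the 33 members, with points for the fold and bars for its 95% interval from limma; dashed lines mark 1.5-fold and its inverse. Only the Pdk4 interval, from 0.884 to 1.70, crosses the upper line, and only the Cpt1a interval, from 0.726 to 0.995, lies wholly on one side of 1.

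The omega-hydroxylases start the microsomal breakdown of fatty acids at the methyl end. Cyp4a1 read 11.06, 11.20 and 11.37 (lowest, median and highest log2 value) in vehicle rats, 10.94, 11.01 and 11.22 at 0.07 mg/kg, and 10.82, 11.19 and 11.39 at 0.69 mg/kg. It read 10.46, 10.95 and 11.45 at 6.88 mg/kg and 10.52, 11.19 and 11.32 at 680 mg/kg, and the rats given 68 mg/kg read 11.36, 10.98, 11.16, 10.88 and 11.10. Every dose group overlapped the vehicle group, and the spread was widest at 6.88 and 680 mg/kg. Cyp4a1 was 0.820 of vehicle at 6.88 mg/kg (95% interval 0.688 to 0.977, limma unadjusted p = 0.0277, adjusted p = 0.999), with 5 of 6 rats below the vehicle mean. At 680 mg/kg it was 0.910 of vehicle (0.763 to 1.08).

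Cyp4a3, a second omega-hydroxylase, averaged 11.19 ± 0.08 without BTBPE and 11.15 ± 0.18 at 680 mg/kg (SD, n = 6 each), a fold of 0.973 (0.844 to 1.12). Its mean was below vehicle at all 5 doses, by at most 0.15 on the log2 scale. Cyp4a8, another member of the family, averaged 4.66, below the lowest array median of 4.71, and was not shown to be above background. A probe set annotated to both Cyp4a3 and Cyp4a2 had means of 12.20 in vehicle rats, 12.29 at 6.88 mg/kg and 12.21 at 680 mg/kg. It was below vehicle at 0.07, 0.69 and 68 mg/kg. The Cyp4a and Acot genes belong to families of similar sequence, and how far a probe set also binds a relative was not tested.

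No peroxisomal member had an unadjusted limma p under 0.05 at any dose. Ehhadh, the bifunctional enzyme that carries out the middle steps of peroxisomal beta-oxidation, read 10.44, 10.87 and 10.97 (lowest, median and highest) in vehicle rats and 10.72, 10.79 and 10.94 at 680 mg/kg. The highest-dose range lay inside the vehicle range, and the fold was 1.00 (0.887 to 1.13). At the other doses the Ehhadh fold ran from 0.932 at 68 mg/kg to 1.03 at 6.88 mg/kg. Eci2, an enoyl-CoA isomerase, had 1.04 of the vehicle level at 680 mg/kg (0.977 to 1.11). The probe set shared by the peroxisomal thiolases Acaa1b and Acaa1a had means of 10.98 in vehicle rats and 10.93 at 680 mg/kg. Pex11a, which takes part in peroxisome division, had group means from 8.10 to 8.23, and those of Decr2, the peroxisomal dienoyl-CoA reductase, ran from 9.96 to 10.11. Those of Acot3, a peroxisomal thioesterase, ran from 5.6 to 5.94.

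Crat and Ech1 act in both organelles. Crat, carnitine acetyltransferase, read 8.14, 8.21 and 8.26 (lowest, median and highest) in vehicle rats and 7.76, 8.01 and 8.12 at 0.69 mg/kg. These are the only groups of a member and dose that did not overlap, where 0.0999% of all probe sets had every 0.69 mg/kg array below every vehicle array and 0.0515% had every one above. At 0.07, 6.88, 68 and 680 mg/kg, with 0 members below or above in this way, 0.0966%, 0.122%, 0.168% and 0.11% of probe sets were below and 0.0677%, 0.0773%, 0.164% and 0.0773% above. The fold was 0.860 (0.771 to 0.958, limma unadjusted p = 0.00776, adjusted p = 1.00). At the other doses Crat was 0.926 to 0.947 of vehicle and the groups overlapped. Ech1, a dienoyl-CoA isomerase, was 0.870 of vehicle at 0.69 mg/kg (unadjusted p = 0.0242) and 0.980 at 680 mg/kg, with overlap at both.

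Cpt1a, the carnitine palmitoyltransferase that sets the rate of fatty acid entry into liver mitochondria, read 10.26, 10.50 and 10.86 (lowest, median and highest) in vehicle rats, 10.08, 10.17 and 10.52 at 0.69 mg/kg and 10.37, 10.62 and 10.94 at 6.88 mg/kg. It read 10.05, 10.33 and 10.55 at 680 mg/kg, and the 5 rats given 68 mg/kg read 10.12, 9.95, 10.14, 10.62 and 10.40. The groups overlapped throughout, and the order did not follow dose: the 6.88 mg/kg group was the highest and the 0.69 mg/kg group the lowest. Cpt1a was 0.803 of vehicle at 0.69 mg/kg (0.686 to 0.940, limma unadjusted p = 0.00784), 1.08 at 6.88 mg/kg (0.923 to 1.27), 0.817 at 68 mg/kg (0.692 to 0.964, unadjusted p = 0.0181) and 0.850 at 680 mg/kg (0.726 to 0.995, unadjusted p = 0.0437). The difference of Cpt1a at 680 mg/kg was close to that p threshold: its limma unadjusted p was 0.0611 after centring on array medians, 0.0663 with array weights and 0.058 with the replicate number as a block, and it passed 0.05 in 6 of the 12 cases with 1 rat left out. Its F test had the smallest p of any member, 0.00258 unadjusted and 1.00 adjusted, and the second Cpt1a probe set had the same sign at the 3 doses with an unadjusted p under 0.05.

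The muscle isoform Cpt1b averaged 4.83, close to the array medians. It was 1.15 of vehicle at 0.07 mg/kg (1.03 to 1.29, limma unadjusted p = 0.0164), the only higher member among those with an unadjusted p under 0.05, and 1.11 at 680 mg/kg (0.990 to 1.24). All 6 of the 6 muscle markers (Ckm, Myh6, Myh7, Acta1, Tnnt3 and Mb) averaged below the lowest array median, at 2.41 to 3.42. Their summed linear level was 43.8 to 48.9 in vehicle rats and 42.3 to 47.6 at 0.07 mg/kg. Cpt2, the inner membrane palmitoyltransferase, had group means from 9.79 to 9.90, and Slc25a20, the carnitine-acylcarnitine carrier, from 8.98 to 9.06.

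The trifunctional protein carries out the last 3 steps of long-chain oxidation. Its beta subunit Hadhb read 11.08, 11.20 and 11.36 (lowest, median and highest) in vehicle rats and 10.97, 11.07 and 11.12 at 0.69 mg/kg, with a small overlap. Hadhb was 0.890 of vehicle there (0.827 to 0.958), with the smallest unadjusted limma p of all members and doses, 0.00276, and an adjusted p of 1.00. At 0.07 mg/kg it was 0.928 of vehicle (unadjusted p = 0.0464) and at 680 mg/kg 0.948 (0.881 to 1.02). The alpha subunit Hadha was 0.934 of vehicle at 0.69 mg/kg (unadjusted p = 0.0335), while 1 of its 2 other probe sets had the opposite sign.

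The acyl-CoA dehydrogenases take the first step of each cycle, each for its own chain length. Acadm, for medium chains, had group means from 11.91 to 11.96, and Acadl, for long chains, from 11.85 to 11.88. Acadvl, for very long chains, was 0.924 of vehicle at 0.69 mg/kg (0.868 to 0.984, limma unadjusted p = 0.0154) and 0.970 at 680 mg/kg. Acaa2, the mitochondrial thiolase, was 0.842 of vehicle at 0.07 mg/kg (0.718 to 0.988, unadjusted p = 0.0358), but its other probe set had the opposite sign. Eci1, an enoyl-CoA isomerase, had group means from 10.79 to 11.01, and Decr1, the mitochondrial dienoyl-CoA reductase, from 11.53 to 11.58.

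Acot2, a mitochondrial thioesterase that frees fatty acids from coenzyme A, read 8.72, 8.86 and 9.13 (lowest, median and highest) in vehicle rats, 8.58, 8.71 and 8.82 at 0.69 mg/kg and 8.90, 8.94 and 9.08 at 680 mg/kg. It was 0.882 of vehicle at 0.69 mg/kg (0.798 to 0.975, limma unadjusted p = 0.0153) and 1.06 at 680 mg/kg (0.957 to 1.17). The F test gave an unadjusted p of 0.00577. The low and high groups lay on either side of vehicle, and both overlapped it. The probe set of the cytosolic thioesterase Acot1 averaged 2.40, below the lowest array median.

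Pdk4, the kinase that shuts off pyruvate oxidation when fat is burned, was the most variable member. It read 8.29, 8.70 and 9.10 (lowest, median and highest) in vehicle rats, 7.88, 8.41 and 9.30 at 0.07 mg/kg and 8.60, 9.06 and 9.23 at 680 mg/kg. Its fold over vehicle was 1.23 at 680 mg/kg (0.884 to 1.70), with 5 of 6 rats above the vehicle mean and a limma unadjusted p of 0.214. Pdk4 had the smallest trend p of the members, 0.0623 unadjusted and 0.973 adjusted.

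Angptl4, a secreted inhibitor of lipoprotein lipase, read 9.34, 9.86 and 10.16 (lowest, median and highest) in vehicle rats, 9.21, 9.55 and 9.93 at 0.69 mg/kg, and 9.66, 10.14 and 10.46 at 6.88 mg/kg. At 680 mg/kg it read 9.60, 9.88 and 10.64. The fold over vehicle was 0.836 at 0.69 mg/kg (0.658 to 1.06), 1.24 at 6.88 mg/kg (0.979 to 1.58) and 1.11 at 680 mg/kg (0.877 to 1.41). The groups overlapped, and the unadjusted F test p was 0.0342.

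**Figure D2:**
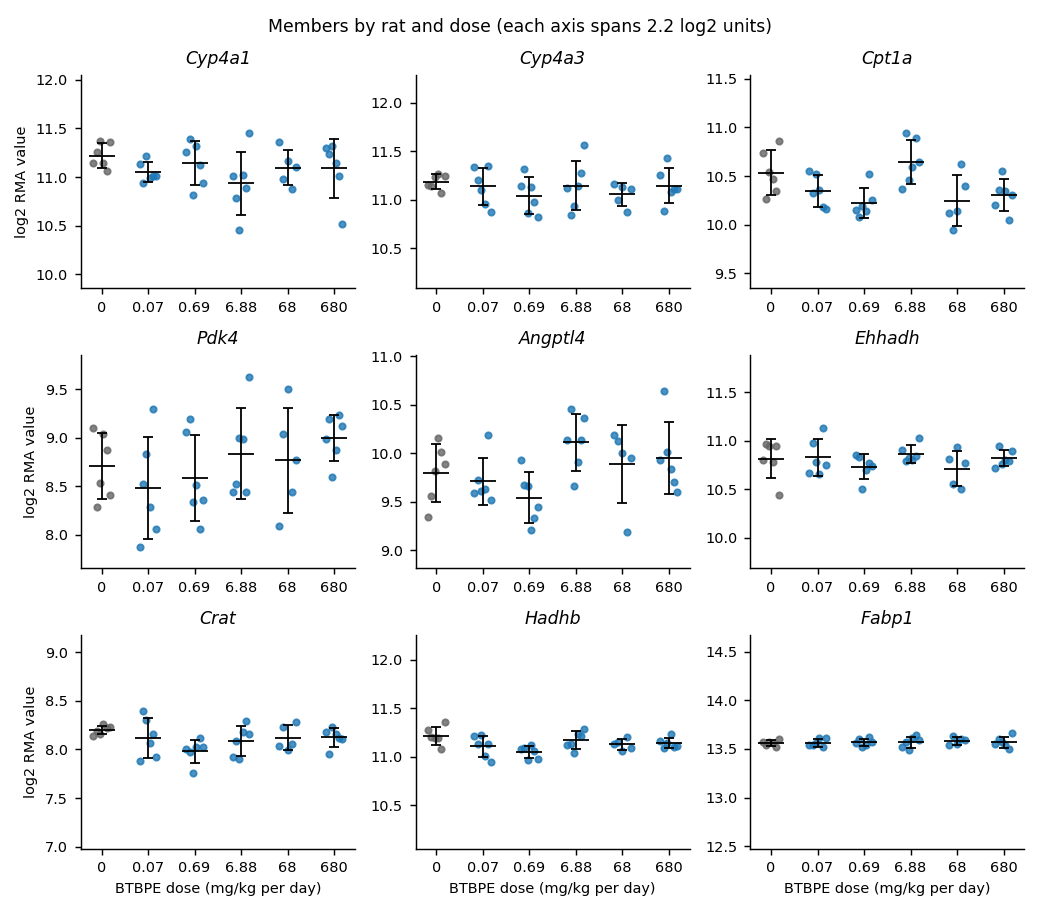
Log2 value of 9 members in each rat (points) against dose in mg/kg per day, with 0 for vehicle; horizontal lines are group means and bars their SD, n = 6 per group and 5 at 68 mg/kg, and every axis spans the same log2 range. Fabp1 is flat, Pdk4 and Angptl4 spread widely within each group, and the groups of each member overlap those of vehicle except Crat at 0.69 mg/kg.

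The members outside the organelles include the transporters and binding proteins. Fabp1, the fatty acid binding protein of liver, was the member of highest level, with group means from 13.56 to 13.58 and a fold of 1.01 at 680 mg/kg (0.954 to 1.06). Vnn1, a pantetheinase, was 0.845 of vehicle at 0.69 mg/kg (0.729 to 0.979, limma unadjusted p = 0.0261) and 0.901 at 680 mg/kg (0.778 to 1.04). Slc22a5, the plasma membrane carnitine transporter, had group means from 6.95 to 7.13. Plin2, the lipid droplet coat protein of hepatocytes, had group means from 11.47 to 11.65, and Creg1, a secreted glycoprotein, from 10.76 to 10.91. Cd36, a fatty acid uptake receptor, had group means from 5.73 to 6.01. Those of Aqp7, a glycerol channel, ran from 5.03 to 5.33. The adipocyte markers Adipoq, Lep and Plin1 averaged 3.54 to 3.89, below the lowest array median, while Cidec and Cfd averaged 8.50 and 7.09. The summed level of these 5 was 486 to 609 in vehicle rats and 499 to 613 at 680 mg/kg.

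Across the list, most member means lay slightly below vehicle at each dose. At 0.07, 0.69, 6.88, 68 and 680 mg/kg, 25, 30, 24, 20 and 21 of 33 members had a lower mean, where 49.4%, 53.3%, 53.0%, 48.3% and 48.9% of all genes did. Many members varied together between rats, as described below. The 33 are therefore not separate observations, and a few rats can move the whole count. The median member log2 difference was -0.07, -0.12, -0.06, -0.02 and -0.02, and the median over all genes was between -0.01 and 0.00. With 1 rat left out, the median member difference ran from -0.092 to -0.038, -0.135 to -0.095, -0.087 to -0.02, -0.044 to 0.003 and -0.05 to -0.007 at these doses. It turned sign at 68 mg/kg without replicate 4 of that dose, and it was -0.02 at 6.88 mg/kg without replicate 3 of that dose. At all 5 doses 16 members lay below vehicle, and so did 15.6% of all genes. That count was 13 to 18 when a vehicle rat was left out. The 16 were Cyp4a1, Cyp4a3, Cyp4a8, Vnn1, Hadha, Hadhb, Acaa2, Slc25a20, Cd36, Ech1, Eci1, Acadvl, Decr1, Decr2, Crat and Aqp7. With the median over a gene's probe sets the count was 13, without Cyp4a8, Hadha and Eci1, and with the probe set of largest SD it was 14, without Cyp4a8 and Hadha. Probe sets with 2 symbols entered none of these counts. The brighter one annotated to Cd36l1 and Cd36 (mean 7.26) was below vehicle at 0.07, 0.69 and 6.88 mg/kg and above it at 68 and 680 mg/kg. The one annotated to Cyp4a3 and Cyp4a2 was above vehicle at 6.88 and 680 mg/kg and below it at the other doses. The differences of the 16 members were mostly within the spread between single rats, which is wider than the error of a group mean. The doses share their vehicle rats, of which replicates 4 and 6 had the highest mean over members, 0.11 above the mean of all rats.

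**Figure D3:**
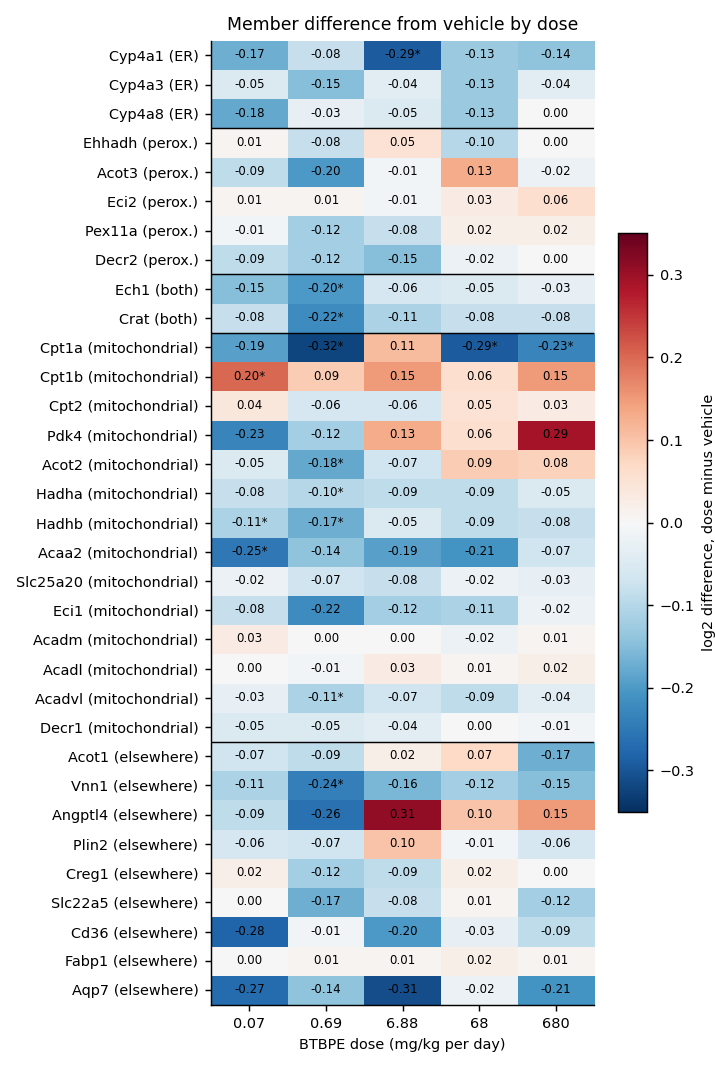
Log2 difference from vehicle (dose mean minus vehicle mean; blue lower, red higher) of the 33 members at each dose in mg/kg per day, grouped by the site where each protein acts. Asterisks mark a limma p under 0.05 before adjustment, and 0 cells pass after adjustment; the 0.69 mg/kg column holds 8 of the marked cells.

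The peroxisomal and mitochondrial members were set side by side as classes, with no test. The median log2 difference of the 5 peroxisomal members was -0.01, -0.12, -0.01, 0.02 and 0.00 from the lowest to the highest dose. For the 14 mitochondrial members it was -0.05, -0.11, -0.05, -0.02 and -0.01. The mean of the peroxisomal minus the mitochondrial members, set against vehicle, was 0.024, 0.003, -0.015, 0.059 and 0.007. Between rats of a group this difference had an SD of 0.0753, larger than each of those 5 shifts. The spread of single rats is wider than the error of a group mean, so this does not show that the shifts lie within that error. The 3 microsomal members had medians of -0.17, -0.08, -0.05, -0.13 and -0.04.

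Members differed in how much they varied between rats of a group. Within groups the SD was largest for Pdk4 (0.435), Aqp7 (0.335), Angptl4 (0.314), Cd36 (0.302), Acot1 (0.281) and Slc22a5 (0.250). It was smallest for Fabp1 (0.0427), Acadm (0.0487), Acadvl (0.0614) and Hadha (0.0620). The median SD of the members was 0.151 log2 units, and that of all genes was 0.139.

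Rats of the same dose differed from each other, and many members differed in step. After the dose mean was removed from each gene, the median Pearson r over the 528 member pairs was 0.13, and over all gene pairs it was 0.00. An r above 0.5 was found for 8.33% of member pairs and for 1.23% of all gene pairs. All gene pairs were not matched to the members for level. Of the 33 members, 31 averaged above the lowest array median, while all genes include dim ones. The part of level in this difference was not tested. In a two-sided permutation test over the 35 rats, shuffling within dose groups 100000 times and adjusting over the 528 pairs by Benjamini-Hochberg, 38 pairs had an adjusted p under 0.05, 34 with positive and 4 with negative r. By Spearman's rho 40 pairs did, and 29 did by both. The count was 25 without the 680 mg/kg rat of replicate 3. The arrays' actin 3′ minus 5′ signal, a measure of RNA integrity, ranged from 1.02 to 1.37, and 44 pairs had an adjusted p under 0.05 after it was regressed out.

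Cyp4a3 had the most partners, with 10 pairs of positive r past the threshold. Its closest was Ech1, with r = 0.76 and rho = 0.77 (permutation adjusted p = 0.00264), and r stayed at 0.74 without the 2 rats farthest from the median of Cyp4a3. Within single dose groups that r ran from 0.47 to 0.92. The raw permutation p of this pair, 1e-05, is the smallest that the shuffles can give. Acot3 followed with r = 0.74 and rho = 0.74 (permutation adjusted p = 0.00264), or 0.70 without 2 rats. Vnn1 gave r = 0.69 and rho = 0.74 (permutation adjusted p = 0.00302; 0.64 without 2 rats), and Slc25a20 gave r = 0.66 and rho = 0.65 (permutation adjusted p = 0.00302; 0.56 without 2 rats). Livers with more Cyp4a3 RNA than others of their dose thus tended to have more RNA of a peroxisomal thioesterase, a pantetheinase and the carnitine carrier.

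Cpt2 and Acot2 formed the closest pair of mitochondrial members, with r = 0.73 and rho = 0.65 (permutation adjusted p = 0.00264; 0.69 without 2 rats). Cpt2 also followed Cyp4a3 (r = 0.68, rho = 0.65, permutation adjusted p = 0.00704), where r was 0.55 without 2 rats. Acot2 followed Vnn1 (r = 0.66, rho = 0.72, permutation adjusted p = 0.00302) and Slc22a5 (r = 0.68, rho = 0.52, permutation adjusted p = 0.00912). For Acot2 and Slc22a5, the adjusted p of rho was 0.0560 and r within dose groups ran from -0.40 to 0.97. Each of the 8 positive pairs named here kept an adjusted p under 0.05, at most 0.0327, whichever 1 of the 35 rats was dropped. For Cpt1a the only positive partner past the threshold was Plin2 (r = 0.59, rho = 0.57, permutation adjusted p = 0.0255). Its r was 0.43 with Acot2 (permutation adjusted p = 0.137) and 0.39 with Cpt2 (permutation adjusted p = 0.154).

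Negative pairs past the threshold were few. An r below -0.5 was found for 0.947% of member pairs and for 0.729% of all gene pairs, a similar share. The negative pairs past the threshold that are not described here involved Cpt1a, Acadvl, Cd36 and Aqp7. Acadm and Aqp7 had r = -0.61 and rho = -0.53 (permutation adjusted p = 0.0216; -0.55 without 2 rats), and the adjusted p was 0.0513 without the 6.88 mg/kg rat of replicate 4. Ehhadh and Plin2 had r = -0.55 and rho = -0.41 (permutation adjusted p = 0.0465), the adjusted p of rho was 0.140, and the call was lost in 17 of 35 cases with 1 rat left out. Pdk4 and Plin2 had r = -0.53, as had Plin2 and Decr2, each with a permutation adjusted p of 0.0612. Aqp7 averaged 5.17, near the array medians of 4.71 to 4.79.

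Pairs of neighbours on the genome differed in how closely their values varied together. Hadha and Hadhb, whose starts are 301 bases apart and which share the stretch printed above, had r = 0.24 and rho = 0.16 (permutation p = 0.187, adjusted p = 0.45), and r without 2 rats was 0.15. The within-group SD was 0.0620 for Hadha and 0.0796 for Hadhb, against the member median of 0.151. With so little spread, a low r does not show that Hadha and Hadhb vary apart. The other Hadha probe sets were not read for r. Acot2 and Acot3 lie 70.9 kb apart on chromosome 6 and had r = 0.64 and rho = 0.61 (permutation adjusted p = 0.0132). Acot1 and Acot2, 24.4 kb apart, had r = 0.47 and rho = 0.55 (permutation adjusted p = 0.0669 for r and 0.0315 for rho). Cyp4a3 and Cyp4a8, 382 kb apart on chromosome 5, had r = -0.30 and rho = -0.28 (permutation p = 0.157, adjusted p = 0.407). Acot1 and Cyp4a8 lay below the lowest array median. These 4 pairs were chosen for their position. Cyp4a1 (mean 11.09), which had no matched window and so no distance here, had Cyp4a3 as its closest member, with r = 0.62.

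**Figure D4:**
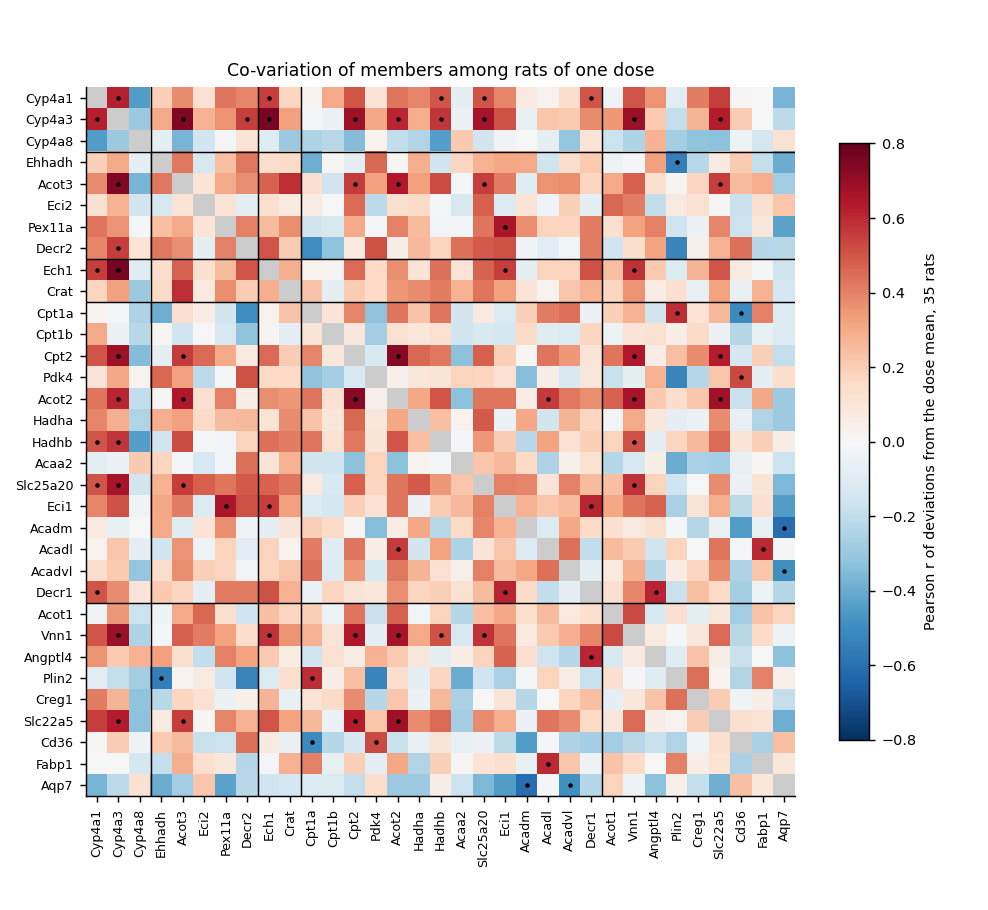
Pearson r of deviations from the dose mean over 35 rats for every pair of the 33 members (red positive, blue negative), with black lines between protein locations and dots on pairs whose permutation p, adjusted over 528 pairs, is under 0.05. The Cyp4a3 row carries 10 dots, and the few blue dots involve Aqp7, Plin2 and Cd36.

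**Figure D5:**
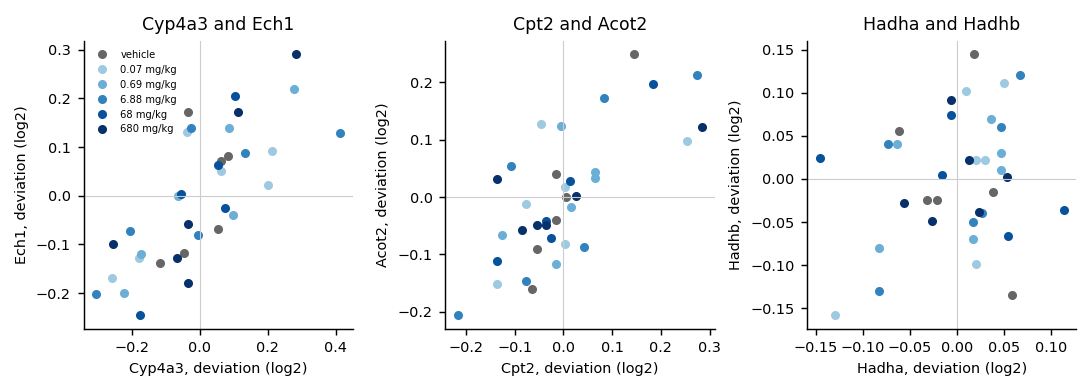
Deviation from the dose mean (log2) in each of 35 rats for Cyp4a3 against Ech1, Cpt2 against Acot2 and Hadha against Hadhb, coloured by dose. The first 2 pairs line up along a rising diagonal with rats of all 6 groups mixed (r = 0.76 and 0.73), and the third is scattered (r = 0.24).

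Averaged over all members, single rats lay between -0.14 and 0.15 log2 units from the mean of all rats, and a rat had between 5 and 28 of the 33 members above the gene's mean. The group means of this deviation were 0.05 ± 0.05 (SD, n = 6) for vehicle, -0.06 ± 0.06 (n = 6) at 0.69 mg/kg and 0.02 ± 0.05 (n = 6) at 680 mg/kg. The 6.88 mg/kg group had the widest range, from -0.11 to 0.15, and also the highest actin 3′ minus 5′ signal, 1.23 ± 0.09 against 1.12 ± 0.08 in vehicle rats (SD, n = 6 each). The part of RNA integrity in that group's spread was not tested.

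Further genes of the pathway were read from the same fit. Of 46 other genes listed, 43 were measured, and 0 were called by limma at any dose (0% of all probe sets). Of these, 27, 30, 27, 25 and 23 were lower than vehicle from the lowest to the highest dose. Over all genes 49.4%, 53.3%, 53.0%, 48.3% and 48.9% were lower. An unadjusted limma p under 0.05 was found for 0, 2, 0, 0 and 1 of the 43. Over all probe sets it was found for 3.64%, 3.16%, 4.63%, 3.88% and 4.95%. Ppara, the receptor itself, averaged 5.03 and was 0.904 of vehicle at 680 mg/kg (0.713 to 1.15), with an unadjusted F test p of 0.179. The 2 smallest unadjusted F test p-values belonged to Ppard, a sister receptor (0.0205), and Acacb, the acetyl-CoA carboxylase whose product inhibits Cpt1 (0.0891), with Acacb averaging 3.80, below the lowest array median.

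The arrays were alike in general terms. Correlations between arrays ran from 0.991 to 0.996, and array medians from 4.71 to 4.79. The hepatocyte markers Alb, Ttr, Apoa1, Cps1 and Fgb averaged 12.7 to 14.4, and their summed linear level was 59900 to 64100 in vehicle rats and 62200 to 65000 at 680 mg/kg. The summed level of 4 Kupffer cell markers ranged from 784 to 1890 over all rats, and their part in the co-variation was not tested.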

How the data were processed

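Liver RNA of 35 rats was hybridised to Affymetrix rat expression arrays with biotin labelling, 1 array per rat, and the deposited value table was used. Its log2 values were made by the authors with RMA in the affy package, per the submitters' processing notes (versions not given in the sources used here); RMA corrects background, quantile-normalises and summarises probes, so array-wide shifts are removed. The base of the log was taken from RMA and the range of values (1.45 to 14.44), not from a header. RMA was not rerun. Of 31099 probe sets, 57 controls were left out; of the 31042 tested, 20826 had 1 symbol, 436 several and 9780 none. A one-way limma fit (limma 3.58.1, R 4.3.3) over all 6 groups gave moderated tests, with Benjamini-Hochberg adjustment within each contrast. The R/maanova test of the series design was not run, and an unmoderated analysis of variance stands beside limma. Trends used dose rank from 0 to 5. Member pairs were tested by permutation in Python 3.11.15. Scripts were tested on simulated data. Members singled out had an unadjusted p under 0.05; the named pairs were the 8 of largest absolute r and the 4 most negative, and the named spreads the 6 largest and 4 smallest SDs. Pairs named beyond these were chosen for position, or after their values were seen (Cpt1a and Plin2, Cyp4a1 and Cyp4a3). Members, the other pathway genes and marker lists were chosen with earlier results of these data known. Array number limits the precision. Labels name separate rats but no litter, cage or array batch.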

Additional observations from a re-analysis of the deposited data

Results flagged for a closer look

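In 12 of 198 member-by-dose groups, 1 rat lay far from the others of its dose by Dixon's ratio at the 95% level, where about 1 in 20 groups, or 9.9 of 198, would by chance. Among vehicle rats, Cpt2 read 9.99 and Ehhadh 10.44 in replicate 6, where the others read 9.78 to 9.85 and 10.78 to 10.97, and Pex11a read 7.81 in replicate 1, where the others read 8.24 to 8.36. At 0.07 mg/kg, Angptl4 read 10.19 and Eci1 11.33 in replicate 5 (others 9.52 to 9.72 and 10.74 to 10.94), and Hadha read 10.16 in replicate 6 (others 10.30 to 10.34). At 0.69 mg/kg, Cyp4a8 read 5.13 in replicate 3 (others 4.43 to 4.68) and Cd36 read 5.19 in replicate 5 (others 6.03 to 6.35). Acot1 read 3.12 in replicate 5 of 6.88 mg/kg (others 2.13 to 2.43), below the array medians. Angptl4 read 9.19 in replicate 4 of 68 mg/kg (others 9.95 to 10.19). At 680 mg/kg, Cpt2 read 10.16 and Eci1 11.22 in replicate 3 (others 9.74 to 9.90 and 10.89 to 11). Vehicle replicate 6, 0.07 mg/kg replicate 5 and 680 mg/kg replicate 3 each appear for 2 members.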

How the results depend on the processing

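The count of probe sets called by limma was 0 at every dose, in the trend and in the F test under quantile normalisation repeated, centring on array medians, a filter on dim probe sets, array weights, a robust prior with an intensity trend, unmoderated variances, and without any 1 of the 35 rats. It was also 0 with only vehicle and the dose fitted, and, for the trend, with dose or its log10 as the scale. Same-numbered rats of different groups deviated together with a median r of -0.0167 over 85 pairs (-0.289 to 0.239), so the numbers were not taken as pairs, and with the replicate number as a block 0 probe sets were called. The block moved the count of member pairs from 38 to 85; its shuffles did not allow for the degrees of freedom that the block takes. Without 1 rat the pair count ranged from 25 (without 680 mg/kg replicate 3) to 53, and centring gave 43. Without 1 rat, members below vehicle numbered 24 to 28, 28 to 31, 21 to 25, 16 to 22 and 17 to 24 from the lowest to the highest dose. The negative r of Ehhadh and Plin2 had an adjusted p of 0.086 after centring, 0.0587 with actin signal removed and up to 0.124 with 1 rat left out. The peroxisomal minus mitochondrial difference turned sign at 0.07 mg/kg (-0.011) and 0.69 mg/kg (-0.024) with the median over a gene's probe sets. With 1 rat left out, the unadjusted p of Cpt1a, Hadhb and Crat at 0.69 mg/kg and of Cpt1b at 0.07 mg/kg stayed under 0.05 in all 12 cases each, and that of Hadhb at 0.07 mg/kg passed 0.05 in 7 of 12. It passed 0.05 for Cpt1a at 680 mg/kg in 6 of 12, Acaa2 at 0.07 mg/kg and Hadha at 0.69 mg/kg in 5 each, Cyp4a1 at 6.88 mg/kg and Vnn1 at 0.69 mg/kg in 4 each, Ech1 at 0.69 mg/kg in 3, Acadvl at 0.69 mg/kg in 2, Acot2 at 0.69 mg/kg in 1, and Cpt1a at 68 mg/kg in 2 of 11. The alternatives for the pairs were planned for the median r and the r of each named pair; counting pairs under them, and every alternative for the count of members below vehicle at all doses, were added after seeing the data.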
